A study of Mus musculus with 7 samples.

Results

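Transcripts for fatty acid and triglyceride metabolism were followed in C3H10T1/2 cells, a mouse embryonic mesenchymal line that can form fat, bone and cartilage cells. The set held 51 genes with a known role in making, storing, releasing, taking up or burning fatty acids, chosen with earlier results of these data known. Of these, 47 had a row among the 18468 genes counted, and 44 passed the filter on low counts that left 12388 genes for testing. Cd36, Fabp3 and Adipoq were counted but had too few reads to pass, and Plin1, Cfd, Lep and Thrsp were not analysed here. The 4 purmorphamine libraries came from cells given 2 μM of this small-molecule agonist of Smoothened, the transducer of the Hedgehog pathway, and the 3 vehicle libraries from cells given 0.02% DMSO. Both groups were serum-free throughout, for 12 h before and for the 48 h of treatment. The cells are 1 line, and nothing in the sources used here says whether the libraries of a group were separate cultures, so p-values measure the spread between libraries only.

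Fatty acids are built from acetyl-CoA by Acly, Acaca and Fasn, then lengthened by elongases and given double bonds by desaturases. Acyl-CoA synthetases activate them, and a series of acyltransferases and phosphatases joins them to glycerol to form triglyceride, which is kept in lipid droplets coated by perilipins. Lipases release the fatty acids again, and mitochondria oxidise them after transfer across the membrane as acylcarnitines. In cells that become adipocytes most of these genes rise together, while in undifferentiated mesenchymal cells many serve membrane lipid synthesis.

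Libraries were of nearly equal depth, from 14337225 to 14342154 reads on genes, because the authors resampled reads to a common number. The treatment could be read from the Hedgehog targets, with Gli1 at 7 to 12 reads in vehicle and 2522 to 3171 in purmorphamine. All 8 mesenchymal fibroblast markers passed the filter, with summed reads of 266005 to 273719 in vehicle and 242140 to 263595 in purmorphamine, but they did not move as one. Vim (fold 0.513) and Col1a2 (0.853) were lower. Pdgfra (1.69), Thy1 (1.67), Ly6a (2.04) and Col3a1 (1.14) were higher, and Pdgfrb and Col1a1 were not called. Mature adipocyte markers had few reads: of 7 listed only Adipoq and Fabp4 had a row, and together they had 47 to 65 reads in vehicle and 19 to 28 in purmorphamine. Summed reads of the 4 macrophage markers with a row were 55 to 60 and 55 to 76, and those of 4 endothelial markers 779 to 820 and 1898 to 2154, nearly all from Tek. Cdh5 had 0 reads in every vehicle library and 21 to 26 in purmorphamine, Pecam1 and Kdr had at most 5 in any library, and Ptprc, which marks blood cells, at most 1. Whether these markers had a part in the differences below was not tested. In bulk RNA, fewer cells carrying a transcript and fewer transcripts in each cell cannot be told apart.

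More of the metabolic genes were lower than higher with purmorphamine. At an adjusted p under 0.2, the threshold of the study, 23 of the 44 tested members (52.3%) were lower, where 31.1% of all genes tested were, and 10 (22.7%) were higher, where 31.4% of all genes were. Their median log2 fold change was -0.14, against 0.0038 over all genes. The groups did not overlap in 17 members (38.6%) that were lower, where the share over all genes was 20.4%, and in 9 (20.5%) that were higher, where it was 29.1%. Changes of at least 1.5-fold were found in 8 members that were lower (18.2%, background 7.56%) and 2 that were higher (4.55%, background 7.89%). At an adjusted p under 0.05, 21 members were lower and 8 higher, where 23.6% and 23.2% of all genes were. The members together took 0.529 to 0.534% of reads in vehicle and 0.464 to 0.506% in purmorphamine, so the groups did not overlap in this sum. It was 75854 to 76622 reads in vehicle and 66464 to 72561 in purmorphamine, and depends most on the members with many reads. Scd2 alone had a mean of 21781 reads in vehicle and 18564 in purmorphamine, and Elovl6 3927 and 1797.

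**Figure D1:**
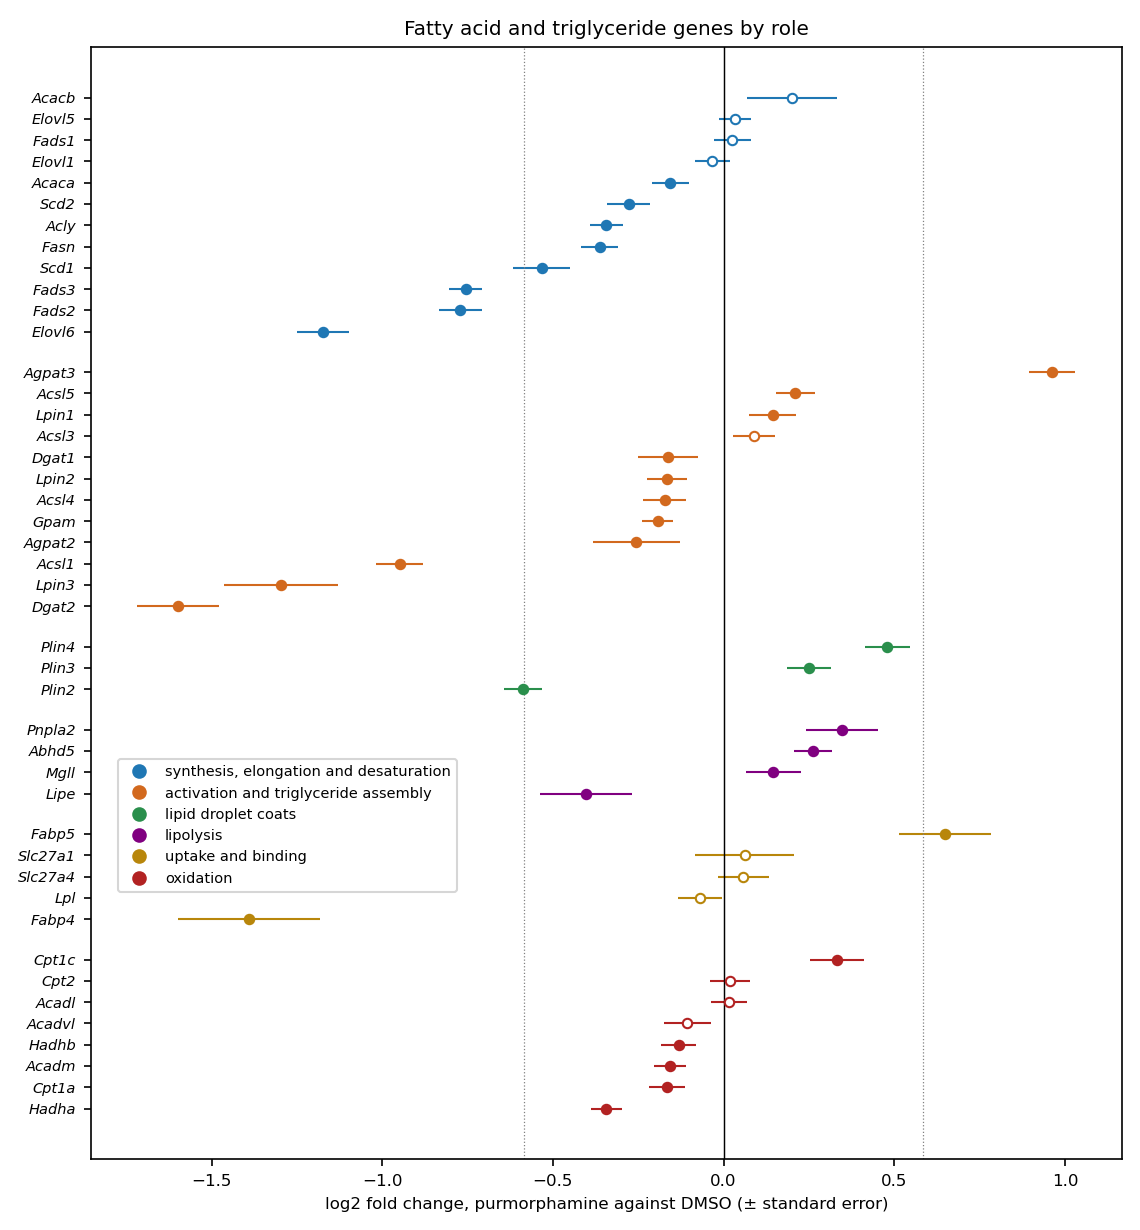
The log2 fold change of purmorphamine against vehicle for the 44 tested members, grouped by role, with bars of 1 standard error, filled points for members called at an adjusted p under 0.2 and dotted lines at 1.5-fold. Synthesis holds 8 lower and no higher calls, and Agpat3 at 0.96 and Dgat2 at -1.60 mark the ends of the range.

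Synthesis, elongation and desaturation leaned furthest to one side: 8 of 12 tested members (66.7%) were lower, where 31.1% of all genes were. None was higher, where 31.4% of all genes were, and 4 were not called. The median log2 difference was -0.31. The further genes of this role leaned less: of 15 tested, 7 (46.7%) were lower, 1 (6.67%) was higher and 7 were not called, with a median of -0.08. With library totals in place of TMM scaling, Acacb and Elovl5 were called higher. Elovl6, which elongates palmitate towards stearate and lies at chr3:129532355-129638495 (GRCm38), had 3950, 3852 and 3979 reads in vehicle and 1820, 1490, 1788 and 2091 in purmorphamine. The highest treated library stood well under the lowest of the vehicle, and the log2 fold change was -1.17 ± 0.08 (SE, adjusted p = 1.18e-09). The fold was 0.443 with a 95% interval of 0.400 to 0.491.

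The 3 fatty acid desaturase genes lie side by side on mouse chromosome 19, Fads3 at chr19:10041569-10060110, Fads2 at chr19:10062765-10101746 and Fads1 at chr19:10182888-10196877 (GRCm38). Fads2, the entry step of polyunsaturated fatty acid synthesis, had 1539, 1627 and 1666 reads in vehicle and 992, 985, 848 and 1074 in purmorphamine (log2 fold change -0.77 ± 0.06 SE, adjusted p = 2.47e-08). Fads3, a family member that acts on sphingoid bases, had 2005, 1978 and 2002 reads against 1247, 1244, 1128 and 1263 (-0.76 ± 0.05, adjusted p = 9.51e-10). Both fell in all libraries by about the same amount. Fads1, which acts later in the same route as Fads2, had 5304, 5282 and 4998 reads in vehicle and 5558, 5025, 5360 and 5912 in purmorphamine, with overlapping groups. Its fold was 1.02 (95% interval 0.947 to 1.09, adjusted p = 0.726), so a fall of the size seen in Fads2 lay outside its interval.

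Of the stearoyl-CoA desaturases, which make monounsaturated fatty acids, Scd1 and Scd2 were lower by smaller amounts. In the same family Scd4 had 22 to 39 reads in vehicle and 34 to 45 in purmorphamine and was not called, and Scd3 had at most 2 reads in any library. Scd2 had 22336, 21759 and 21249 reads in vehicle and 18921, 16443, 18064 and 20829 in purmorphamine, groups that were close but did not overlap (-0.28 ± 0.06, adjusted p = 0.00165). Scd1 fell further, with 2702 ± 181 reads (SD, n = 3) in vehicle, 1928 ± 271 (SD, n = 4) in purmorphamine and a difference of -0.53 ± 0.08 on the log2 scale (SE, adjusted p = 5.01e-05). Acly, which supplies cytosolic acetyl-CoA, had 3465 ± 26.0 reads against 2820 ± 163, and Fasn, which makes palmitate, 2693 ± 107 against 2163 ± 151. Their log2 fold changes were -0.34 ± 0.05 and -0.36 ± 0.05, and neither gene had overlapping groups. Acaca, which makes malonyl-CoA for Fasn, was called lower at -0.16 (adjusted p = 0.0244), and its groups overlapped only before scaling. Acacb, Elovl1 and Elovl5 were not called, with log2 fold changes from -0.03 to 0.20. How reads matching more than 1 gene of a family were counted was not given in the sources used here, which bears on Scd1 and Scd2. Scd2 also shares exon sequence on its own strand with a microRNA gene, Mir5114. Acsl1, Scd1, Fasn, Acly, Fads1 and the other members described here beyond those taken by the rule on size and level were chosen after their values were seen.

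Promoter sequence was available from RefSeq (GRCm38.p6) for 43 of the 51 members, as 53 windows of 250 bases before and 50 bases after an annotated start. Dgat1, Dgat2, Fabp4, Fabp5, Fads1, Lpl, Scd1 and Scd2 had no window there. The 250 bases before the start are shown for the members with the largest change in synthesis and for Acsl1 and Agpat3, whose transcripts moved in opposite directions, written 5′ to 3′ on the gene's strand with motif matches in capitals. The motifs searched, on both strands, were the sterol regulatory element core TCACCCCAC, the E-box CACGTG, the CCAAT box CCAAT, the GC box GGGCGG and a Gli site core TGGGTGGTC.
Elovl6 (chr3:129532136-129532385, plus strand): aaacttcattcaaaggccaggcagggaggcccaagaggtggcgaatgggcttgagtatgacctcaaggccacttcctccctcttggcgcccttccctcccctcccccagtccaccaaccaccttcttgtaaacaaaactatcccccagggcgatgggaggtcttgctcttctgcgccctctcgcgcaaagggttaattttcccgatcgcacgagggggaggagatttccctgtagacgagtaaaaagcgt
Fads2 (chr19:10101504-10101753, minus strand): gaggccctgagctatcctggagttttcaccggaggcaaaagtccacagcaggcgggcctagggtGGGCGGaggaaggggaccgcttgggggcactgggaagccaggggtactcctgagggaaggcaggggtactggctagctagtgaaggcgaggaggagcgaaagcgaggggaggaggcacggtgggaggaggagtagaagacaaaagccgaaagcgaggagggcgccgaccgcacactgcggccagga
Fads3 (chr19:10041298-10041547, plus strand): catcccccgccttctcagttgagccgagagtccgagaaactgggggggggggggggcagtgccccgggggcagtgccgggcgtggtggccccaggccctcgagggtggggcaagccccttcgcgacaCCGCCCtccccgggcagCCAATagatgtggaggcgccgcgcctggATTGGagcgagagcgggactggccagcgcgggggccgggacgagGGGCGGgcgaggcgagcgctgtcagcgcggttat
Acsl1 (chr8:46490716-46490965, plus strand): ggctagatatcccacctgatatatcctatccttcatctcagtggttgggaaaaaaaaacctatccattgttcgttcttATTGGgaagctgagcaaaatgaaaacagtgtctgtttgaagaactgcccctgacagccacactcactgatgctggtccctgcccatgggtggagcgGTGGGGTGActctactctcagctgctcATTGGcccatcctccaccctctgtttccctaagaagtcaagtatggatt
Agpat3 (chr10:78351701-78351950, minus strand): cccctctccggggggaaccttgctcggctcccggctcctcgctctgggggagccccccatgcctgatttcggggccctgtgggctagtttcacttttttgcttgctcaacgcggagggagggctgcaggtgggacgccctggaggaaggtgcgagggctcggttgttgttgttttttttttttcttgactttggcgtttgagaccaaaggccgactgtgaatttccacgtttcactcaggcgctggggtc
Elovl6 and Agpat3 held no match to any of the 5 motifs, while Fads3 and Acsl1 held matches to the CCAAT box. The sterol regulatory element core was found in 1 of the 53 member windows (1.89%), the Acsl1 window shown, against 0.551% of 32851 windows of all genes. Acsl1 has a second window, at chr8:46470787-46471086 where its annotated gene begins, which is not shown and held 7 GC boxes and none of the other motifs. The GC box was in 31 member windows (58.5%, all genes 35.7%), the CCAAT box in 21 (39.6%, all genes 37.4%), the E-box in 7 (13.2%, all genes 7.15%), and the Gli site core in 0 (all genes 0.253%). The GC box was in 6 of 10 windows of members called higher, 15 of 24 of those called lower and 8 of 12 of those not called. In these counts 8 members had more than 1 window. A match is a description of letters in these windows and does not show that a factor binds, and no match says nothing of sites elsewhere.

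Activation and triglyceride assembly held the largest movements in both directions. Of 12 tested members, 8 (66.7%, all genes 31.1%) were lower, 3 (25%, all genes 31.4%) were higher and 1 was not called. Dgat2, which adds the last acyl chain to make triglyceride, had 151, 154 and 155 reads in vehicle and 49, 57, 46 and 57 in purmorphamine. Its log2 fold change was -1.60 ± 0.12 (SE, adjusted p = 7.8e-09), a fold of 0.330 (95% interval 0.281 to 0.389), and no library of the groups overlapped. Dgat1, an unrelated enzyme of the same step, was called lower at -0.16 (adjusted p = 0.144) with overlapping groups. Lpin3, a phosphatidate phosphatase that makes diacylglycerol, had 61, 63 and 53 reads in vehicle and 26, 24, 25 and 24 in purmorphamine (-1.30 ± 0.17, adjusted p = 6.88e-06). Lpin2 was lower by -0.17 and Lpin1 called higher by 0.14, the latter with overlapping groups. Acsl1, a long-chain acyl-CoA synthetase, had 660, 607 and 628 reads against 346, 343, 304 and 359 (-0.95 ± 0.07, adjusted p = 4.86e-09). Acsl5 was higher by 0.21 and Acsl4 lower by -0.17, while Acsl3 was not called (0.09).

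Agpat3 rose furthest of the tested members. This enzyme adds an acyl chain to lysophosphatidic acid and other lysophospholipids, and its gene lies at chr10:78269178-78352489 (GRCm38). It had 1475, 1711 and 1562 reads in vehicle and 3008, 3620, 2947 and 3172 in purmorphamine, so the groups were far apart. The log2 fold change was 0.96 ± 0.07 (SE, adjusted p = 3.36e-09), a fold of 1.95 (95% interval 1.78 to 2.14). Agpat2, the enzyme of the same step that is needed for adipose tissue, was called lower at -0.26 (adjusted p = 0.112) with overlapping groups. Gpam, the mitochondrial acyltransferase that opens the route, was lower by -0.19 (adjusted p = 0.00229), without overlap.

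Lipid droplet coats split by member. Plin2, the coat protein of droplets in most cells, had 2177, 2218 and 2330 reads in vehicle and 1583, 1621, 1375 and 1588 in purmorphamine (-0.59 ± 0.05, adjusted p = 1.29e-07). Plin4, which binds nascent droplets, had 1356, 1522 and 1432 reads against 2105, 2336, 1964 and 1874 (0.48 ± 0.07, adjusted p = 1.36e-05). Plin3, found on small droplets and in the cytosol, had 919, 940 and 1014 reads against 1205, 1308, 1061 and 1135 (0.25 ± 0.06, adjusted p = 0.00443). None of the 3 had overlapping groups, and 2 rose while 1 fell. Over all genes, the groups did not overlap in 29.1% that were higher and 20.4% that were lower.

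Of the 4 lipolysis members, 3 were higher and 1 was lower, by small amounts, where 31.4% and 31.1% of all genes were. The further genes of this role went the other way. Of 3 tested, G0s2 (described below) and Lipa (-0.31, adjusted p = 6.7e-05) were lower and Abhd6 was not called. Pnpla2, the lipase of the first step, had 128, 125 and 142 reads in vehicle and 176, 189, 150 and 177 in purmorphamine (0.35 ± 0.11, adjusted p = 0.013). Abhd5, its coactivator, had 615, 567 and 577 reads against 726, 741, 727 and 710 (0.26 ± 0.06, adjusted p = 0.00107). Lipe, the diacylglycerol lipase of the next step, moved the other way, with 84, 77 and 79 reads against 59, 65, 70 and 56 (-0.40 ± 0.13, adjusted p = 0.0214). Mgll, which takes the last fatty acid off, was called higher at 0.15 (adjusted p = 0.154), and its groups overlapped once counts were scaled by TMM.

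**Figure D2:**
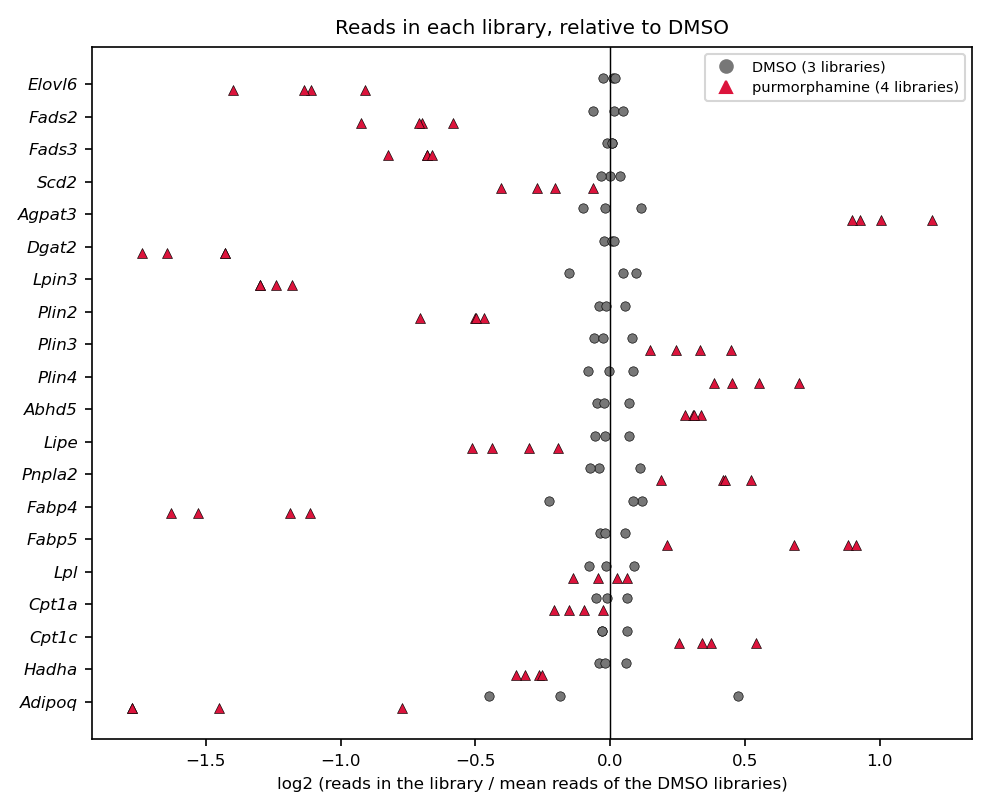
Reads of 20 members in each library, as log2 of the library's reads over the mean of the 3 vehicle libraries (circles) for the 3 vehicle and 4 purmorphamine (triangles) libraries. Elovl6, Dgat2, Lpin3, Fabp4 and Fads2 lie left of the vehicle libraries and Agpat3 and Plin4 right of them, while Lpl overlaps.

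Uptake and binding held opposite changes in 2 genes for fatty acid binding proteins that lie near each other on mouse chromosome 3, which carry fatty acids in the cytosol. Fabp4, the adipocyte form, had 47, 46 and 37 reads in vehicle and 20, 19, 14 and 15 in purmorphamine (-1.39 ± 0.21, adjusted p = 3.12e-05). Fabp5 had 155, 157 and 165 reads against 293, 299, 184 and 255 (0.65 ± 0.13, adjusted p = 0.000796), and its lowest purmorphamine library, at 184, was above the highest vehicle library. Lpl, which releases fatty acids from lipoproteins and was the most read member of this role, had 711, 634 and 662 reads against 608, 680, 649 and 698. Its fold was 0.953 (95% interval 0.874 to 1.04, adjusted p = 0.395), so a change of 1.5-fold lay outside the interval. The transporters Slc27a1 and Slc27a4 were not called. Cd36 had at most 1 read in any library, and Fabp3 at most 5. Of 8 further genes of this role tested, 5 (62.5%) were lower and 3 (37.5%) higher, where 31.1% and 31.4% of all genes were.

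Of the 8 oxidation members, 4 (50%) were lower, 1 (12.5%) was higher and 3 were not called, where 31.1% and 31.4% of all genes were lower and higher. None changed by 1.5-fold, where 7.56% of all genes were lower and 7.89% higher by that much. With 8 genes, none cannot be told from those shares. Hadha, the alpha subunit of the mitochondrial trifunctional protein, had 3338, 3394 and 3577 reads in vehicle and 2763, 2859, 2694 and 2881 in purmorphamine (-0.34 ± 0.05, adjusted p = 9.02e-06). Hadhb, the beta subunit encoded beside it on the opposite strand, was called lower by -0.13, and its groups overlapped in the deposited counts but not after TMM scaling. Cpt1a, which starts the transfer of fatty acids into mitochondria, had 1576, 1534 and 1661 reads against 1486, 1563, 1430 and 1375, called lower with groups that overlapped in the deposited counts but not after scaling (-0.17 ± 0.05, adjusted p = 0.0154). Cpt1c, a neuronal relative with little activity of that kind, had 316, 296 and 296 reads against 392, 440, 383 and 361 (0.33 ± 0.08, adjusted p = 0.00231). Acadm, the medium-chain dehydrogenase, was lower by -0.16, and Cpt2, Acadl and Acadvl were not called.

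Of the adipocyte products, Adipoq (adiponectin) was the only one with a row and did not pass the filter. It had 12, 19 and 10 reads in vehicle and 8, 4, 5 and 4 in purmorphamine, so the groups did not overlap, but counts were low. An exact permutation test over the 35 ways to assign the libraries gave two-sided p = 0.0571, where the smallest possible is 0.0286. In a fit with no filter its log2 fold change was -1.40 ± 0.40 (SE) with an adjusted p of 0.00716.

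Paralogs and partners were also set against each other within each library, as the log2 ratio of the reads of 14 pairs. The pairs were chosen after their values were seen, so the ratios are a description with no test. The ratio of Fabp5 to Fabp4 rose by 2.00 on the log2 scale, that of Agpat3 to Agpat2 by 1.23 and that of Plin4 to Plin2 by 1.07. The ratio of Dgat2 to Dgat1 fell by 1.44, that of Lpin3 to Lpin1 by 1.43, that of Elovl6 to Elovl5 by 1.22, that of Acsl1 to Acsl5 by 1.16, that of Fads2 to Fads1 by 0.80 and that of Fads3 to Fads1 by 0.78. Smaller differences were those of Scd1 over Scd2 (-0.26), Hadha over Hadhb (-0.21), Cpt1c over Cpt1a (0.50) and Pnpla2 over Lipe (0.75). Fads2 over Fads3 had overlapping groups, with a mean log2 ratio of -0.31 ± 0.06 (SD, n = 3) in vehicle and -0.33 ± 0.07 (SD, n = 4) in purmorphamine.

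**Figure D3:**
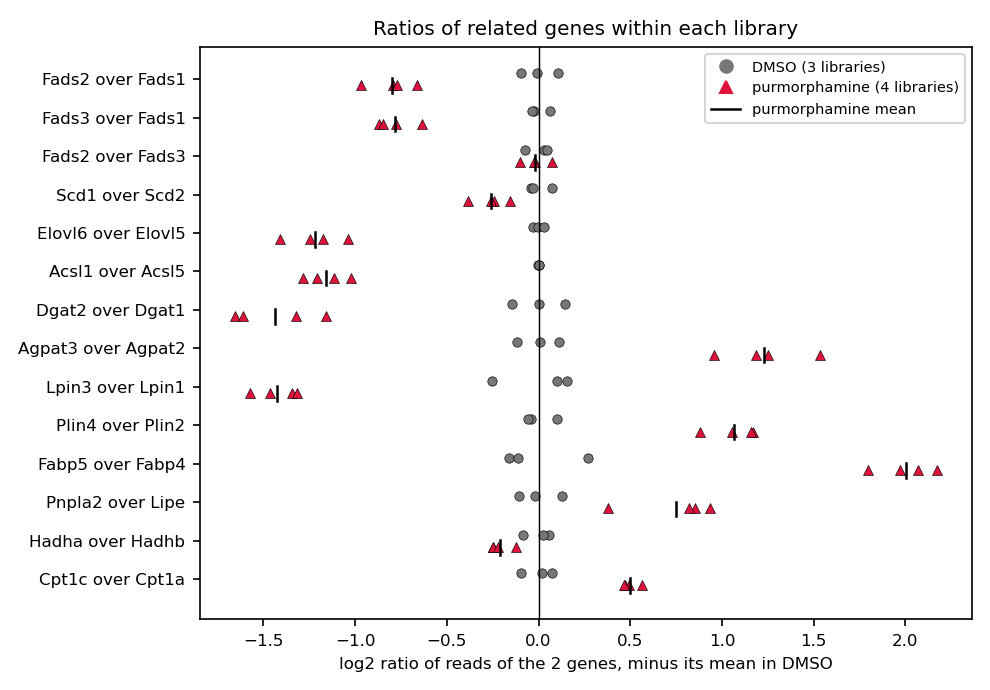
The log2 ratio of reads of 14 pairs of related genes in each library, minus the mean of that ratio in vehicle, with circles for the 3 vehicle libraries, triangles for the 4 purmorphamine libraries and a bar at the purmorphamine mean. Fads2 over Fads3 is the only pair in which the groups overlap, and Fabp5 over Fabp4, at 2.00, lies furthest from vehicle.

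Levels were put on one scale as CPM per kilobase of annotated exon (GENCODE M21). Scd2 was the highest member in both groups, at 283 ± 6.88 (SD, n = 3) in vehicle and 234 ± 23.0 (SD, n = 4) in purmorphamine. Fads1 (76.7 and 78.1) and Elovl5 (67.0 and 68.5) followed and kept their ranks. Elovl6 went from rank 6 in vehicle, at 43.4 ± 0.92, to rank 20 in purmorphamine, at 19.2 ± 2.64, while Agpat3 went from rank 22 (14.4) to rank 8 (28.1). Dgat2 was at 3.53 and 1.17 and Fabp4 at 0.686 and 0.260. The merged annotated exons of Fabp4, 4489 bases, cover its whole gene (chr3:10204088-10208576), so its level and rank may be too low.

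**Figure D4:**
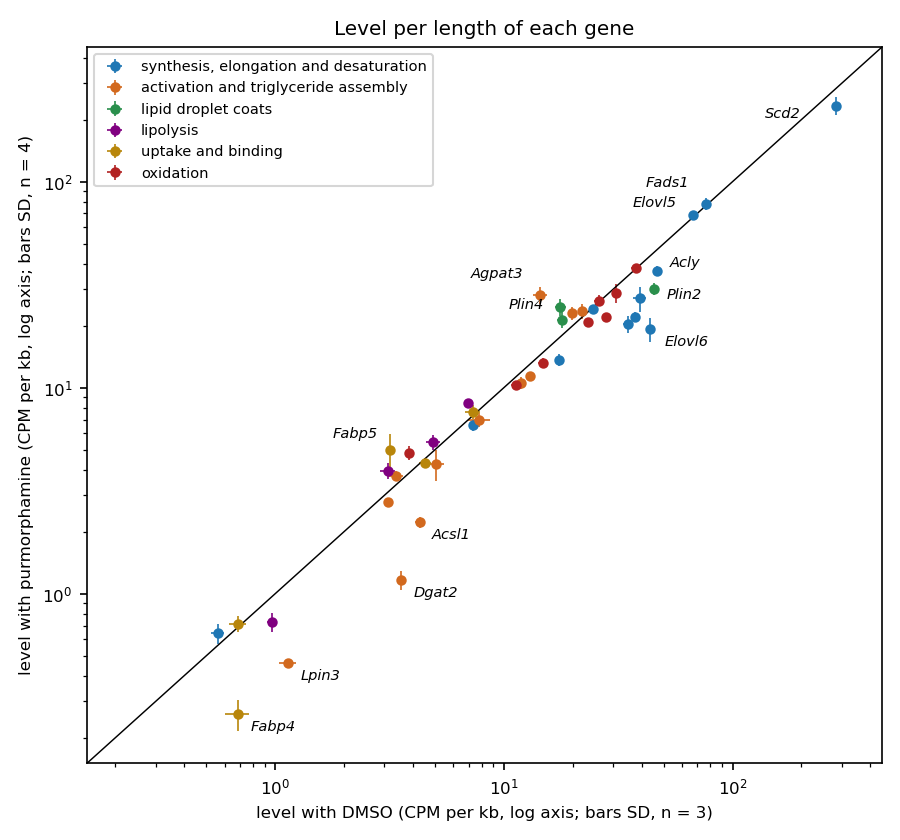
Level per length of each tested member in vehicle (x axis) and purmorphamine (y axis), in CPM per kb on log axes, with bars for the SD over 3 and 4 libraries and a diagonal where the levels are equal. Scd2 lies at the top, and Elovl6, Dgat2, Lpin3 and Fabp4 fall below the diagonal while Agpat3 and Fabp5 lie above it.

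A further list held 101 genes of the same pathways, also chosen with earlier results known, of which 76 were tested. It gave 33 lower (43.4%) and 16 higher (21.1%), where 31.1% and 31.4% of all genes were. Its median log2 difference was -0.08. Of its 12 tested regulators 5 were higher (41.7%) and 4 were lower (33.3%), near the 31.4% and 31.1% of all genes. Srebf1, which drives fatty acid synthesis genes, was not called (-0.11, adjusted p = 0.423), and Pparg, the main adipocyte regulator, was lower by -0.25 (adjusted p = 0.0023). Insig1, which holds back the processing of the sterol regulatory proteins, was higher by 0.47. Rxra (0.45), Nr1h2 (0.33), Insig2 (0.33) and Srebf2 (0.10) were also called higher. Mlx (-0.25), Ppard (-0.21) and Ppargc1a (described below) were called lower, and Scap and Rxrb were not called. Of these, Ppargc1a passed the filter through its vehicle reads alone. Whether any of these regulators had a part in the changes above was not tested.

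Of the further genes, 8 passed a log2 fold change of 1, and the share of all genes past that size was not computed. At 1.5-fold, 3 of the 76 tested (3.95%) were higher and 11 (14.5%) lower, where 7.89% and 7.56% of all genes were. G0s2, an inhibitor of Pnpla2, had 136, 136 and 150 reads in vehicle and 28, 34, 25 and 35 in purmorphamine (-2.25 ± 0.14, adjusted p = 8.48e-10). Angptl4, an inhibitor of Lpl, had 1379, 1477 and 1695 reads against 590, 821, 538 and 577 (-1.31 ± 0.10, adjusted p = 1.83e-08). Both inhibitors were lower, while Pnpla2 was higher and Lpl was not called. Lipase activity was not measured. Lipg, a lipase of the same family as Lpl, had 58, 51 and 57 reads against 11, 8, 13 and 13 (-2.33 ± 0.21). Cav1, the coat protein of caveolae, had 762, 738 and 822 reads against 255, 298, 265 and 262 (-1.57 ± 0.07).

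Slc27a3, an acyl-CoA synthetase of the fatty acid transporter family, was the only one of the 8 that rose, with 133, 150 and 149 reads against 447, 440, 367 and 386 (1.46 ± 0.10, adjusted p = 1.28e-09). Acox2, which oxidises branched acyl chains in peroxisomes, had 250, 249 and 268 reads against 55, 71, 61 and 69 (-2.04 ± 0.11). Acot1, an acyl-CoA thioesterase, had 53, 57 and 54 reads against 20, 10, 7 and 11, and since it is nearly identical to Acot2 its counts are uncertain. Ppargc1a, a coactivator of mitochondrial genes, had 17, 26 and 20 reads against 2, 2, 3 and 2. It passed the filter through its vehicle reads alone, so its call and its place among the 8 are a description. The ratio of its mean reads was 0.107, with an exact binomial 95% interval of 0.0468 to 0.217 that covers counting error only.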

How the data were processed

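RNA was sequenced as stranded, ribosomal RNA-depleted libraries (single reads) from C3H10T1/2 cells in 2 groups, 4 libraries with purmorphamine and 3 with DMSO. Reads were aligned with STAR 2.5.3a to mm9 per the submitters' processing notes. The authors resampled reads to equal totals before quantifying and deposited sense-strand read counts per gene, so these counts were already equalised in depth. From these counts, genes were filtered with edgeR 4.0.16 filterByExpr (minimum count 10, minimum total 15), scaled by TMM (factors 0.978 to 1.02) and compared by edgeR's quasi-likelihood test in R 4.3.3, with Benjamini-Hochberg adjustment over 12388 genes and an adjusted p under 0.2 as the threshold. Single values were compared by an exact two-sided permutation test over 35 assignments of mean log2(scaled count + 1), and pair ratios had 0.5 added to each count. The script was run on simulated data with far fewer changed genes than were called here, which does not check its error rate on these data. Members and gene lists were chosen with earlier results of these data known. Named members were those past a log2 fold change of 1, the 3 of largest change per role and the most read of each role. Alternatives were limma-voom (limma 3.58.1), DESeq2 1.42.0, library totals, other filters and leaving out each library. At these totals 3 reads are 0.209 CPM. Lengths and coordinates came from GENCODE M21 (GRCm38), matched by Ensembl identifier. Chi-square tests between replicates found no duplicated library.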

Additional observations from a re-analysis of the deposited data

Results flagged for a closer look

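In 1 of the 44 tested members a library of the 4 with purmorphamine stood apart from the other 3. For Plin2, purmorphamine replicate 7 was lowest, with a gap to its nearest neighbour of 0.866 of the range of the group, above the 95% critical value of Dixon's test for 4 samples. Chance gives about 1 in 20 such groups, or 2.2 among 44. All 4, this one included, were below the 3 vehicle libraries.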

How the results depend on the processing

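No paired analysis was possible because no replicate number occurs in both treatments. Of the 33 calls among members, limma-voom kept 33, DESeq2 31 (Dgat1 and Mgll were lost), library totals without TMM factors 32, no filter 33, and each fit that left out a library between 30 and 33. Lpin1, Mgll, Dgat1 and Agpat2 were the calls lost there, and no call turned its direction. Library totals without TMM factors gained 3 calls, Acacb, Elovl5 and Acsl3, and members called higher went from 10 to 13. Some fits that left out a library gained Acsl3, Acadvl, Acacb or Adipoq. Leaving out 1 library gave 8 to 11 members higher and 21 to 24 lower, and 13 to 17 further pathway genes higher and 30 to 35 lower. At an adjusted p under 0.05, 8 members were higher and 21 lower, and 10 further pathway genes were higher and 27 lower, where 23.2% and 23.6% of all genes were. Requiring 1.5-fold left 2 members higher (4.55%) and 8 lower (18.2%), and 3 further genes higher (3.95%) and 11 lower (14.5%). Over all genes, 7.89% were higher and 7.56% lower by that much. Without TMM factors the median over all genes moved by 0.048 and that over members was -0.097. Leaving out any 1 library, an alternative chosen after seeing the data, moved the difference of each pair ratio by less than its SD pooled over both groups.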

Other observations

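Among the 4 purmorphamine libraries, replicate 6 was lowest and replicate 8 highest for 9 of the 44 tested members (20.5%), which held for 11.4% of all genes tested. The 9 were Scd1, Scd2, Elovl5, Elovl6, Fads1, Acsl3, Acsl4, Acsl5 and Hadhb, and 5 of them are among the 12 synthesis members. This pattern was noticed in these data, and its cause was not tested.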
